A study of Mus musculus with 8 samples.

Results

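The genes described here encode 10 proteins that write, maintain or remove methylation of cytosine in DNA. They are Dnmt1 (ENSMUSG00000004099), Dnmt3a (ENSMUSG00000020661), Dnmt3b (ENSMUSG00000027478), Dnmt3l (ENSMUSG00000000730), Uhrf1 (ENSMUSG00000001228), Uhrf2 (ENSMUSG00000024817), Tet1 (ENSMUSG00000047146), Tet2 (ENSMUSG00000040943), Tet3 (ENSMUSG00000034832) and Tdg (ENSMUSG00000034674), chosen by name from a table of 17922 rows, and each of the 10 had 1 row. Their levels were followed while fibroblasts of mouse embryos (MEFs) were reprogrammed to induced pluripotent stem cells (iPSCs). The cells were C57BL/6 fibroblasts of 13.5-day fetuses of the tetO-OSKM mouse, which carries doxycycline-inducible Pou5f1, Sox2, Klf4 and Myc (OSKM). The 4 long RNA libraries came from MEFs before induction (day 0), from cultures on day 3 and on day 6 after addition of 2 ug/ml doxycycline, and from fully reprogrammed iPSCs. All groups therefore descend from cells with the inducible cassette. For induction the medium held serum replacement, LIF and 3 uM CHIR99021, an inhibitor of GSK3. The sources used here do not give the medium of the uninduced MEFs, the promoter that drives the doxycycline-responsive transactivator, the number of iPSC lines, their culture medium or whether they still received doxycycline. Effects of medium and of induction therefore cannot be told apart.

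In mammals most methylation lies on cytosines followed by guanine (CpG). DNMT3A and DNMT3B place new marks, DNMT3L lacks enzymatic activity and assists them, and DNMT1 copies marks to the new strand after replication, brought there by UHRF1, which recognises hemimethylated CpG. TET proteins oxidise 5-methylcytosine, and TDG, a glycosylase, excises the later oxidation products so that base excision repair can restore unmodified cytosine. Both sides of this system are known to be active in mouse pluripotent cells, and methylation of pluripotency gene promoters is known to be removed during reprogramming.

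Expression is given in FPKM, the number of fragments scaled to gene length and library size, so levels of different genes can be set side by side and each level is a share of its library. Each group had 1 library, so no spread, error or test between groups exists. A fixed rule of size was used in its place. The words higher and lower are used of a gene where log2(FPKM + 1) differed by at least 1, a 2-fold step of that scale, with at least 1 FPKM in the higher library, and a smaller difference is described as within the rule. Sequencing depth is not stated. It was estimated from rows above 0 and under 0.06 FPKM in both libraries, by their most frequent ratio to the MEF library. By this estimate the day 3 library held about 0.642 times as many fragments as the MEF library, and the day 6 and iPSC libraries 1.04 times as many. The estimate is rough. Its most frequent ratio was held by 27 of 920 rows on day 3, 22 of 1038 on day 6 and 17 of 554 in iPSCs. If it holds, low values were least precise on day 3.

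The labelled identities were compared with marker genes. Of 14 pluripotent stem cell markers, 13 were higher in iPSCs than in MEFs and the other, Klf2, was within the rule. On day 6, 5 of them could be compared with MEFs. Pou5f1 (8.56 FPKM on day 6 and 0.226 in MEFs) and Sox2 (2.03 and 0.411 FPKM) were higher. Klf2 (10.2 FPKM on day 6 and 28.9 in MEFs) was lower. On day 3 only Pou5f1 was higher than in MEFs, at 3.03 FPKM. The inducible cassette also carries Pou5f1 and Sox2. Of 14 fibroblast markers, 13 were lower in iPSCs, with a summed level of 209 FPKM in iPSCs, against 6742 to 7068 FPKM in the other libraries. Macrophage and leukocyte markers (9 of 10 with a row) summed to 82.3 FPKM in MEFs, 60.9 on day 3, 66.5 on day 6 and 51.8 in iPSCs. Of the iPSC sum, 38.5 FPKM was Laptm5, and Ptprc, Tyrobp and Emr1 were listed at 0 there. The 5 keratinocyte markers summed to 3.65 FPKM in MEFs, 4.58 on day 3, 19.5 on day 6 and 1.54 in iPSCs. The 5 endothelial markers summed to 0.453 FPKM in MEFs, 1.41 on day 3, 2.15 on day 6 and 29.0 in iPSCs. For 6 trophoblast and primitive endoderm markers the sums were 38.5 FPKM in MEFs, 44.1 on day 3, 43.6 on day 6 and 29.1 in iPSCs. The MEF sum was mostly Dab2 (35.1 FPKM, and 10.7 in iPSCs). Of 5 compared between iPSCs and MEFs, 3 were higher in iPSCs (Gata4, Eomes and Sox7) and 1, Dab2, was lower. The endothelial sum in iPSCs was mostly Pecam1 (26.2 FPKM). Krt14, Dsg3 and Sox7 were listed at 0 in MEFs, Dsg3 on day 3, Emcn and Eomes on day 6, and Emcn in iPSCs. The part of these cells in the results was not tested. In cultures of mixed cells, fewer cells of a type and less RNA per cell cannot be told apart.

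Through day 6 none of the methylation genes compared passed the rule, and in iPSCs most of them were several-fold higher. The summed level of the 10 genes was 82.0 FPKM in MEFs, 93.3 on day 3, 96.6 on day 6 and 495 in iPSCs. In iPSCs 8 of the 10 were higher than in MEFs and 0 were lower, and Uhrf2 and Tet3 were within the rule. Over the whole table, 12937 rows could be compared, of which 21.1% were higher in iPSCs and 25.0% were lower. The median difference was 1.92 over the 10 genes and -0.05 over all rows, on the log2(FPKM + 1) scale. Rescaling the libraries to the same upper quartile or to the same sum (TPM) raised the median of all rows to 0.13 and 0.12, and 0 of the 10 genes changed their call. Against day 6, 8 of 10 were again higher and 0 lower, beside 20.4% of 12951 rows higher and 23.4% lower. Comparisons with MEFs share the MEF library, and those of iPSCs share the iPSC library.

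**Figure D1:**
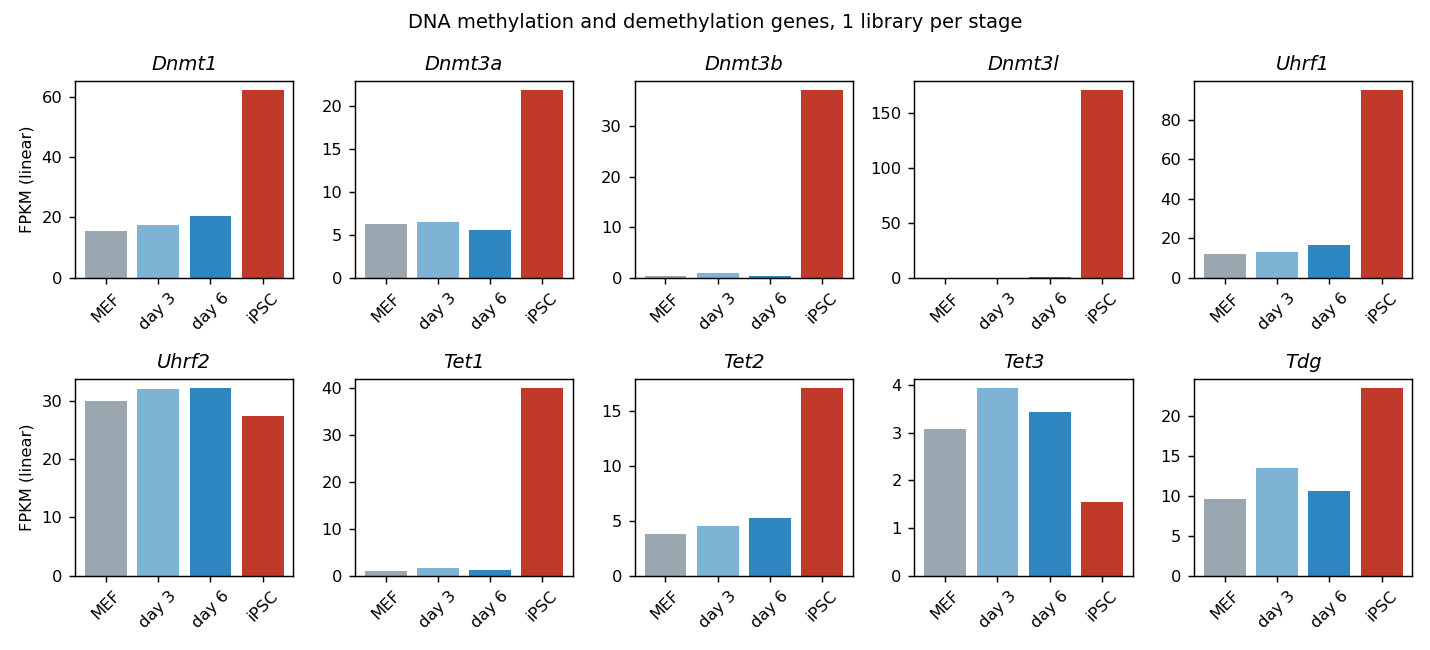
Level of each of the 10 genes in FPKM (linear axes from 0, a separate scale for each gene) in MEFs, on day 3, on day 6 and in iPSCs, 1 library per bar. The iPSC bar is the highest for 8 genes, and for Tet3 and, in the FPKM as deposited, Uhrf2 it is the lowest.

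Among the de novo genes were the pair with the widest ranges of the 10, Dnmt3l and Dnmt3b. Dnmt3l, the catalytically inactive cofactor, was at 0.126 FPKM in MEFs, 0.0919 on day 3, 0.612 on day 6 and 170.2 in iPSCs. It was thus near the floor of the table in all of the first 3 libraries, and its iPSC level was the highest of any of the 10 genes. The difference between iPSCs and MEFs was 7.25 on the log2(FPKM + 1) scale, the 8th highest of 12937 rows. Dnmt3b, a de novo methyltransferase of early embryonic cells, was at 0.433 FPKM in MEFs, 0.931 on day 3, 0.410 on day 6 and 37.0 in iPSCs. Neither induced culture reached 1 FPKM, and the difference between iPSCs and MEFs was 4.73, the 75th highest. Dnmt3a, the other de novo methyltransferase, was at 6.22 FPKM in MEFs, 6.50 on day 3, 5.59 on day 6 and 21.8 in iPSCs. Unlike its paralogs it was already present in MEFs, and its iPSC level was 3.51 times the MEF level (log2 difference 1.66).

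The make-up of the DNMT3 family therefore differed between iPSCs and MEFs. Dnmt3a made up 9.52% of the summed FPKM of the 3 genes in iPSCs, against 91.8% in MEFs. Dnmt3l made up 74.3% in iPSCs, against 1.85% in MEFs. Among the catalytic pair alone, Dnmt3b held 63.0% in iPSCs, against 6.51% in MEFs, and the ratio of Dnmt3b to Dnmt3a FPKM was 1.70 in iPSCs and 0.0696 in MEFs. On day 6 Dnmt3a still held 84.6% of the family sum. The Dnmt3l share was then 9.24%, but of a sum of only 6.61 FPKM.

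Promoters of Dnmt3b and Dnmt3l are shown because these 2 genes had the widest ranges and their CpG content, the substrate of the enzymes, was unlike. The sequences are from RefSeq on build GRCm38.p6, cover 250 bases before and 50 after an annotated start, run 5′ to 3′ in the direction of the gene, and have CpG in capitals. They are not on the mm9 build that the submitters' processing notes name. The table holds 1 start for Dnmt3b, on the plus strand, and 3 for Dnmt3l, also on the plus strand, of which the first is printed. FPKM per gene does not show which start was used.
Dnmt3b, chr2:153649199-153649498: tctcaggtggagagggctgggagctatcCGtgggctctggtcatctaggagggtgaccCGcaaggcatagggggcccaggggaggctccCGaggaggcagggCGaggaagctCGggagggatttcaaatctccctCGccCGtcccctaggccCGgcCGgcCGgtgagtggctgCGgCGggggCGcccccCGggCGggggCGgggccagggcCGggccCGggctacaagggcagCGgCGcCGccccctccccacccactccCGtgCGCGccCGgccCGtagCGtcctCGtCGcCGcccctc
Dnmt3l, chr10:78042037-78042336: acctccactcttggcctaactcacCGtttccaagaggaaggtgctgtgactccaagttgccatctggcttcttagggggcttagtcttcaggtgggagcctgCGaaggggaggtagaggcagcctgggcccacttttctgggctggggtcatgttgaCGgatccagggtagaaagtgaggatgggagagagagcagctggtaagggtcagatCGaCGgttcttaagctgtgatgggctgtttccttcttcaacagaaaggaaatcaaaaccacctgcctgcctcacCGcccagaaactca
Dnmt3b held 30 CpG in 300 bases, more than 88.3% of the 32851 promoters of the table. The 3 Dnmt3l starts held 6, 4 and 3 CpG, beside a median of 7 over all promoters. Both genes were near 0 in MEFs and high in iPSCs. Since they were picked for their ranges and their unlike CpG content, the pair says nothing of how CpG content relates to level. That relation was not tested.

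An overlap bears on the Dnmt3l value. In the reference annotation the gene overlaps Aire, the transcriptional regulator known from thymic epithelium, and no strand setting is given for the counting. Aire was listed at 27.8 FPKM in iPSCs and at 0.00561 FPKM in MEFs. Both rows were thus high in iPSCs, and reads from the shared stretch cannot be told apart without strand, so neither value is free of the other. Noncoding genes that overlap Dnmt1, Dnmt3a, Tet1 and Tet3 were not analysed here.

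**Figure D2:**
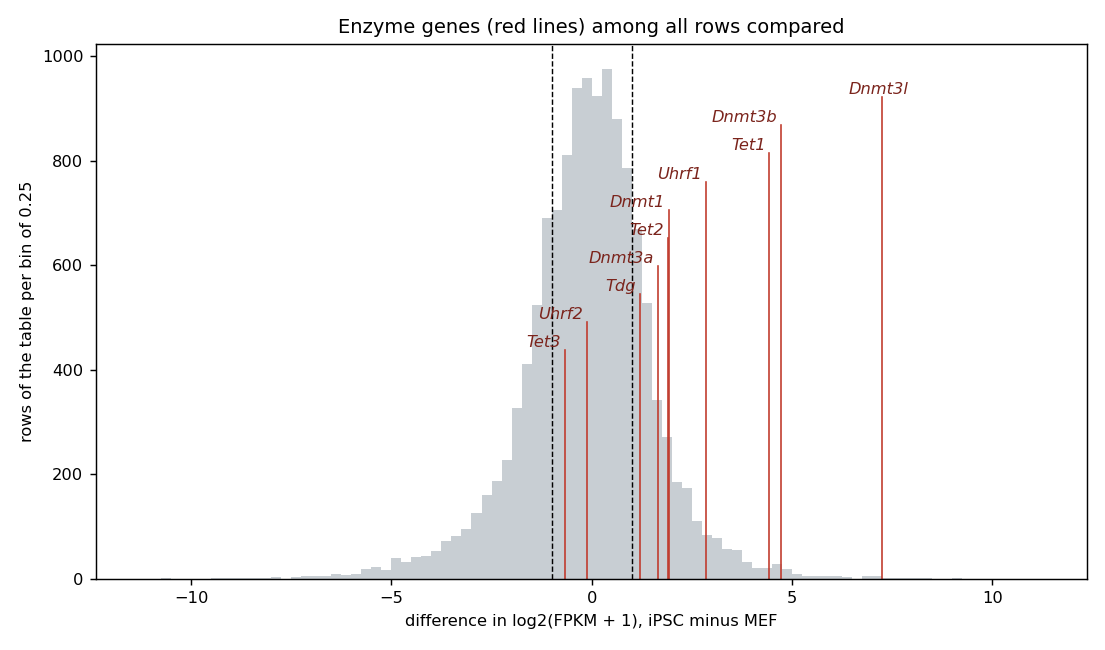
Histogram of the difference in log2(FPKM + 1), iPSCs minus MEFs, over 12937 rows in bins of 0.25, with a red line for each of the 10 genes (line heights carry no value) and dashed lines at the rule of 1. Dnmt3l (7.25), Dnmt3b (4.73) and Tet1 (4.44) lie in the far right tail, and Tet3 lies left of 0, as does Uhrf2 (-0.13) except after upper-quartile rescaling and in TPM.

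The maintenance genes had substantial levels at every stage. Dnmt1, the maintenance methyltransferase, was at 15.6 FPKM in MEFs, 17.5 on day 3, 20.4 on day 6 and 62.1 in iPSCs. Uhrf1, its recruiter, was at 12.2 FPKM in MEFs, 12.8 on day 3, 16.9 on day 6 and 94.7 in iPSCs. Both had the order MEFs, day 3, day 6, iPSCs from low to high, with neighbouring stages before iPSCs within the rule. The iPSC level was 3.98 times the MEF level for Dnmt1 (log2 difference 1.93) and 7.73 times for Uhrf1 (2.85). The ratio of Uhrf1 to Dnmt1 FPKM was 1.53 in iPSCs, against 0.785 in MEFs.

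Uhrf2, a paralog of Uhrf1 that also binds modified cytosine, was nearly level across the stages. It was at 30.0 FPKM in MEFs, 32.0 on day 3, 32.2 on day 6 and 27.4 in iPSCs. Its difference between iPSCs and MEFs was -0.13, which became 0.05 after upper-quartile rescaling and 0.02 in TPM. Among these 10 genes it had the smallest range, 0.23 on the log2(FPKM + 1) scale. Uhrf1 made up 77.6% of the summed FPKM of the pair in iPSCs, against 29.0% in MEFs.

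Dnmt1 and Uhrf1 are known to be transcribed with the cell cycle, so 20 proliferation genes are given beside them. In iPSCs 16 of the 20 were higher than in MEFs and 0 were lower, beside 21.1% and 25.0% of all rows. The iPSC levels of the 20 were between 0.638 and 9.26 times the MEF level with a median of 4.04 times. The Dnmt1 ratio of 3.98 lay above 10 of the 20 genes, and the Uhrf1 ratio of 7.73 above 19 of them, below Bub1. On day 6 the proliferation genes were at a median of 1.27 times the MEF level (range 1.02 to 1.47). Dnmt1 was then at 1.30 times and Uhrf1 at 1.38 times. The part of proliferation in the levels of these 2 genes was not tested.

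**Figure D3:**
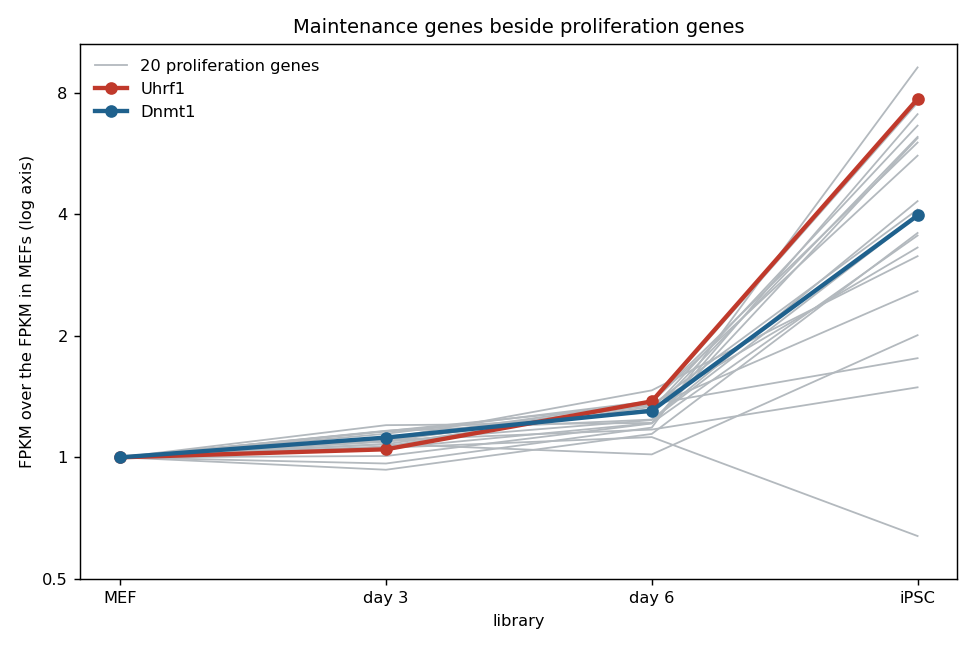
FPKM relative to the MEF library (log axis) for Uhrf1 (red), Dnmt1 (blue) and 20 proliferation genes (grey) in MEFs, on day 3, on day 6 and in iPSCs. In iPSCs Dnmt1 (3.98) sits in the middle of the grey lines and Uhrf1 (7.73) near their top.

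The leading TET gene differed between iPSCs and the earlier stages. Tet1, the dioxygenase known for its abundance in mouse embryonic stem cells, was at 0.890 FPKM in MEFs, 1.57 on day 3, 1.25 on day 6 and 40.0 in iPSCs. It was weak in the first 3 libraries, and the difference between iPSCs and MEFs was 4.44, the 103rd highest of 12937 rows. Tet2, which also acts in pluripotent cells, was at 3.79 FPKM in MEFs, 4.55 on day 3, 5.27 on day 6 and 17.1 in iPSCs. Its iPSC level was 4.50 times the MEF level (log2 difference 1.91), with the order MEFs, day 3, day 6, iPSCs. Tet3, known for its role in the zygote, was at 3.07 FPKM in MEFs, 3.94 on day 3, 3.45 on day 6 and 1.55 in iPSCs. It was the one TET gene lowest in iPSCs, at 0.504 times the MEF level, and its difference of -0.68 was within the rule.

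Tet1 made up 68.2% of the summed TET FPKM in iPSCs, against 11.5% in MEFs. Tet3 made up 2.64% in iPSCs, against 39.6% in MEFs, and Tet2 29.1% in iPSCs, against 48.9% in MEFs. The ratio of Tet1 to Tet3 FPKM was 25.8 in iPSCs and 0.290 in MEFs. Day 3 and day 6 had the MEF order, with Tet2 above Tet3 and Tet3 above Tet1.

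**Figure D4:**
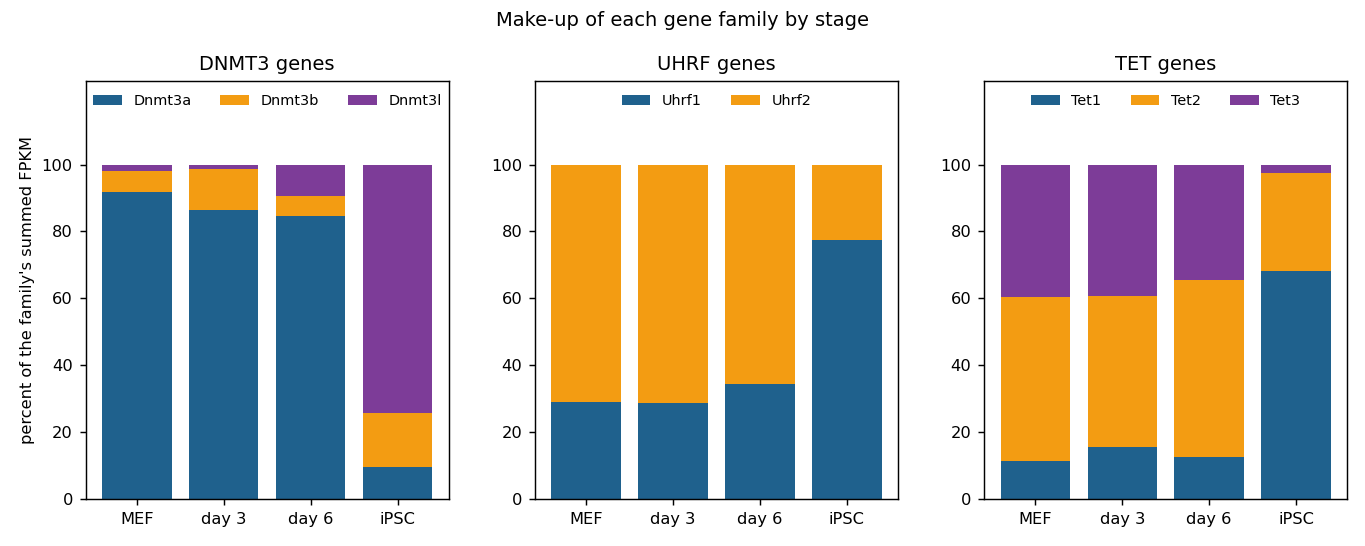
Percent of each family's summed FPKM held by each gene (stacked bars, DNMT3 genes left, UHRF genes middle, TET genes right) in MEFs, on day 3, on day 6 and in iPSCs. In iPSCs the largest share belongs to Dnmt3l (74.3%), Uhrf1 (77.6%) and Tet1 (68.2%), and in each of the other 3 libraries to Dnmt3a, Uhrf2 and Tet2.

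The promoters of Tet1 and Tet2 are shown because both genes were higher in iPSCs but started from different MEF levels. Both are on the minus strand, printed in the same form, with 1 annotated start each.
Tet1, chr10:62887275-62887574: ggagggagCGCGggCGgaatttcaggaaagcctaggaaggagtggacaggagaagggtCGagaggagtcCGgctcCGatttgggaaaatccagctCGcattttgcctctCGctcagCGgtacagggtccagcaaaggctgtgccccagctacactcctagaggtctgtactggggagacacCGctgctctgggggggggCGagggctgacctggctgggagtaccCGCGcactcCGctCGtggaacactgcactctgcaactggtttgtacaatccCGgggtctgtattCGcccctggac
Tet2, chr3:133544341-133544640: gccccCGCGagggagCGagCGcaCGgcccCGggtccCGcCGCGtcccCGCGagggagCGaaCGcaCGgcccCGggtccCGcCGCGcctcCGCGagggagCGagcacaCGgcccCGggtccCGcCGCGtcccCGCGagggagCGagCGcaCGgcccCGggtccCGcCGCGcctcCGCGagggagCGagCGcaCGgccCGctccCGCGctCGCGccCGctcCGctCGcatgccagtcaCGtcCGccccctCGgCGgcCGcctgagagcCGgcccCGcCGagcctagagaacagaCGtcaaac
Tet1 held 17 CpG, more than 68.6% of all promoters, and Tet2 held 57, more than 99.9%. Over the 10 genes, which had 17 annotated starts, 9 starts of 8 genes exceeded the upper quartile of 20 CpG. Tet1 and Dnmt3l were the 2 genes with no such start. For Dnmt1 the 3 starts held 2, 12 and 33 CpG, and for Uhrf1 the pair of starts held 12 and 33.

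Short motifs were searched on both strands of these 17 windows, which are not separate items, since 4 genes have several starts and the first 2 Dnmt3a windows overlap. CACGTG, the E-box that MYC proteins bind, was in 3 of 17, which were 1 start each of Dnmt3a, Dnmt3l and Tdg, and in 7.15% of all promoters. E2F-type letters (TTTGGCGC, TTTCGCGC or TTTCCCGC) were in 2 of 17, the third Dnmt1 start and the second Uhrf1 start, and in 1.84% of all promoters. The octamer ATGCAAAT of POU factors was in 0 of 17 and in 1.74% of all. The GC box GGGCGG was in 13 of 17 and in 35.7% of all promoters, and CCAAT in 6 of 17 and in 37.4%. The GC box, the E-box and the E2F letters hold CpG, and 9 of the 17 windows exceeded the upper quartile of CpG. The shares were not compared at like CpG content. Matches of different motifs did not overlap each other, and a match is a description of letters only.

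Tdg encodes the glycosylase that excises the later products of TET oxidation. The gene was at 9.59 FPKM in MEFs, 13.4 on day 3, 10.6 on day 6 and 23.5 in iPSCs. Its iPSC level was 2.45 times the MEF level (log2 difference 1.21), the smallest difference among the 8 genes called higher. With a pseudocount of 5 FPKM this call was lost, at 0.96 against MEFs and 0.87 against day 6. The gene overlaps Glt8d2 in the reference annotation, and Glt8d2 was at 0.506 FPKM in iPSCs and 6.42 FPKM in MEFs. The 2 rows thus went in opposite directions.

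On day 3 and day 6 none of these genes passed the rule. For day 3 against MEFs 8 of the 10 reached 1 FPKM and 0 were called, beside 0.170% of 11740 rows higher and 0.0511% lower. For day 6 against day 3 and for day 6 against MEFs the count was again 0 of 8. Among 11817 rows compared between day 6 and day 3, 0.457% were higher and 0.398% lower. Between day 6 and MEFs, 0.770% of 11816 rows were higher and 0.584% were lower. These last counts, 91 higher and 69 lower, were 98 and 58 after upper-quartile rescaling and 190 and 85 in TPM. TPM multiplied the MEF library by 2.055 and the day 6 library by 2.223. The pseudocount and the minimum stayed as they were, so both were smaller relative to the values. The median of all rows between day 6 and MEFs was 0.09 in TPM, against -0.02 as deposited. With so few rows past the rule at these stages, 0 of 8 is near the background.

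Small early differences are given as values. On day 3 the largest were those of Tdg and Tet1, both 0.44 above MEFs on the log2(FPKM + 1) scale and 278th and 279th highest of 11740 rows. On day 6 both were closer to MEFs (0.13 and 0.25). All 8 genes compared were above MEFs on day 3, as were 46.2% of all rows, with a median difference of 0.18 over the genes and -0.02 over all rows. On day 6 the largest difference from MEFs was that of Uhrf1 (0.43, 553rd highest of 11816 rows), followed by Tet2 (0.39) and Dnmt1 (0.36). Dnmt3l, under 1 FPKM and so outside the comparison, was 0.52 above MEFs on day 6, the only stage before iPSCs at which it exceeded 0.5 FPKM. That value rests on the pseudocount, being 1.66 with 0.1 FPKM and 0.13 with 5 FPKM. With no replicate, none of these can be set against an error.

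Among partners of the enzymes, no gene was lower in iPSCs. Of 24 recruiters and maintenance partners listed, 23 had a row, with a median difference of 0.93. Of these, 10 (43.5%) were higher in iPSCs than in MEFs and 0 lower, beside 21.1% and 25.0% of all rows. This list and those that follow were chosen with earlier results of these data known. A share unlike that of all rows may therefore come from the choice of genes. The chromatin remodeller Hells, needed for normal DNA methylation, was at 508 FPKM in iPSCs and 54.6 in MEFs. Cdca7, its zinc finger partner, was at 66.4 FPKM in iPSCs and 2.98 in MEFs, the largest difference of the list (4.08). Zfp57, which protects methylation at imprinted regions, was at 93.6 FPKM in iPSCs and 12.5 in MEFs. Trim28, the corepressor that binds such zinc finger proteins, was at 511 FPKM in iPSCs and 117 in MEFs, and the histone methyltransferase Setdb1 at 20.8 FPKM in iPSCs and 8.72 in MEFs. Usp7, a deubiquitinase that stabilises DNMT1 and UHRF1, was at 129 FPKM in iPSCs and 40.6 in MEFs. The replication clamp Pcna was at 124 FPKM in iPSCs and 48.0 in MEFs, and Morc3, a chromatin ATPase, at 34.7 FPKM in iPSCs and 12.8 in MEFs. Pcna also stands in the proliferation list, so these lists are not separate. Dppa3 was not analysed here.

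Readers of CpG had a median difference of -0.52. Of 15 readers, 14 were compared between iPSCs and MEFs, of which 1 (7.14%) was higher and 4 (28.6%) were lower. The share lower is near the 25.0% of all rows, so it is not a result about readers. Zbtb38, a zinc finger protein that binds methylated DNA, was at 8.95 FPKM in iPSCs and 78.7 in MEFs. Its relative Zbtb4 was at 4.28 FPKM in iPSCs and 25.6 in MEFs. The methyl-CpG binding gene Mbd2 was at 14.0 FPKM in iPSCs and 43.7 in MEFs, and Cxxc5, which has a CXXC domain, at 16.5 FPKM in iPSCs and 39.5 in MEFs. Kdm2b, a CXXC protein that binds unmethylated CpG, was the higher one at 23.5 FPKM in iPSCs and 8.19 in MEFs. Ctcf (34.9 FPKM in iPSCs and 18.2 in MEFs) was within the rule and passed it after upper-quartile rescaling and in TPM.

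Of 24 base excision repair and deaminase genes, 23 were compared between iPSCs and MEFs, with a median of 0.75. Of these, 10 (43.5%) were higher in iPSCs and 1 (4.35%) lower, beside 21.1% and 25.0% of all rows. Parp1, a sensor of DNA strand breaks, was at 159.9 FPKM in iPSCs and 15.0 in MEFs. The uracil glycosylase Ung was at 25.0 FPKM in iPSCs and 2.44 in MEFs, and Mbd4, a glycosylase for mismatched thymine at CpG, at 10.7 FPKM in iPSCs and 1.78 in MEFs. The cytidine deaminase gene Apobec3 was at 63.7 FPKM in iPSCs and 8.80 in MEFs. Xrcc1, a repair scaffold, was at 29.0 FPKM in iPSCs and 11.7 in MEFs, and the flap nuclease Fen1 at 31.0 FPKM in iPSCs and 14.0 in MEFs. Apex1, the abasic site nuclease that acts after glycosylases such as TDG, was within the rule at 54.4 FPKM in iPSCs and 39.7 in MEFs. The lower gene was Gadd45g, of a stress-response family, with 14.0 FPKM in iPSCs and 112 in MEFs, and its relative Gadd45a was at 29.0 FPKM in iPSCs and 29.7 in MEFs.

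Of 13 TET cofactor and partner genes, 4 (30.8%) were higher in iPSCs and 0 were lower (median 0.59), beside 21.1% and 25.0% of all rows. Sall4 (54.5 FPKM in iPSCs and 0.0307 in MEFs) and Prdm14 (6.75 FPKM in iPSCs and 0.00750 in MEFs) are transcription factors of pluripotent cells. The other 2 were the repressor Rest (45.6 FPKM in iPSCs and 17.7 in MEFs) and the mitochondrial isocitrate dehydrogenase Idh2 (108 FPKM in iPSCs and 47.8 in MEFs). The cytosolic enzyme Idh1 was at 49.1 FPKM in iPSCs and 53.4 in MEFs, and Ogt, a sugar transferase that binds TET proteins, at 77.1 FPKM in iPSCs and 53.5 in MEFs. In the methyl donor cycle, 4 of 16 genes (25.0%) were higher and 3 (18.8%) lower, near the 21.1% and 25.0% of all rows (median 0.39). Shmt1 (34.8 FPKM in iPSCs and 4.23 in MEFs) and Mthfd1 (105 FPKM in iPSCs and 17.7 in MEFs), both enzymes of folate metabolism, were higher. Ahcy, which clears S-adenosylhomocysteine, was at 33.3 FPKM in iPSCs, against 11.5 FPKM in MEFs. Adk (31.0 FPKM in iPSCs and 82.7 in MEFs) and Ahcyl1 (22.3 FPKM in iPSCs and 58.0 in MEFs) were among the lower genes. Mat2a, which makes S-adenosylmethionine, was within the rule at 30.7 FPKM in iPSCs and 40.1 in MEFs.

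Over these 5 lists, 89 genes were compared between iPSCs and MEFs, with 29 higher and 8 lower, beside 21.1% and 25.0% of all rows. For day 3 against MEFs, day 6 against day 3 and day 6 against MEFs, 0 of 84 passed the rule. Of all rows, 0.170%, 0.457% and 0.770% were higher in the same order, and 0.0511%, 0.398% and 0.584% were lower. So few rows passed that 0 of 84 is near the background.

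**Figure D5:**
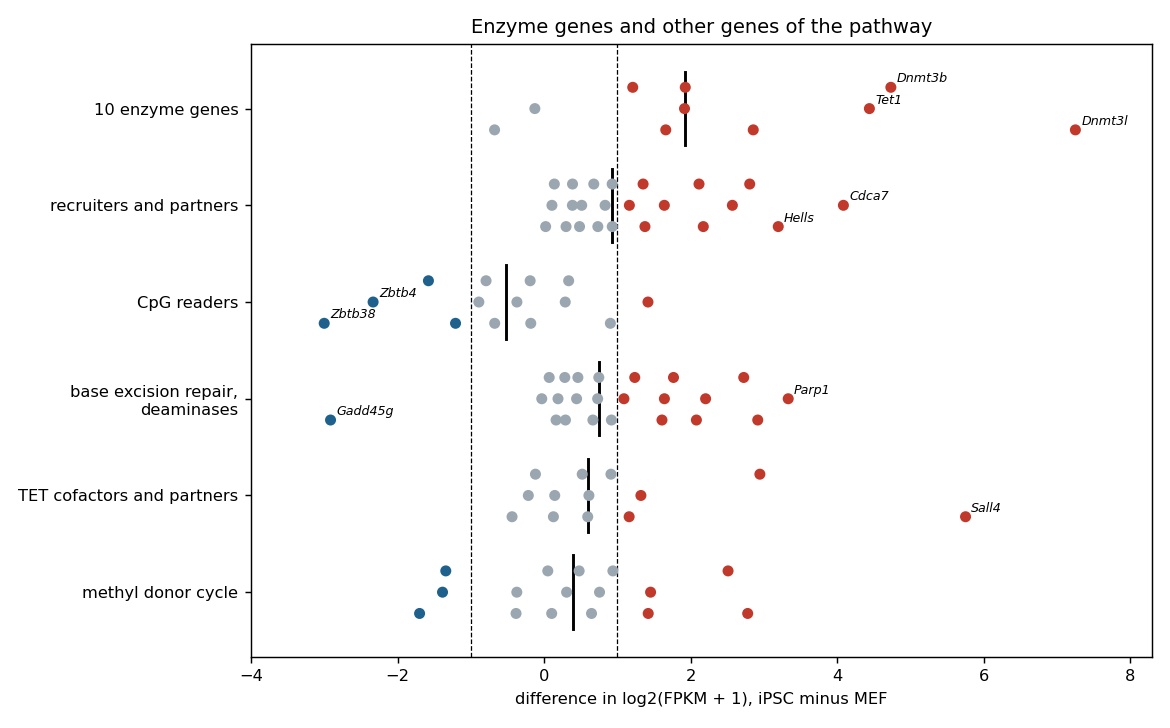
Difference in log2(FPKM + 1), iPSCs minus MEFs, for the 10 enzyme genes and 5 lists of related genes with at least 1 FPKM in either library (1 point per gene, red at or above 1, blue at or below -1, grey between, dashed lines at the rule, black bars at the list medians; vertical offsets only separate points). The medians are 1.92 for the enzymes and -0.52 for the CpG readers, the one list with a median below 0.

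The genes most alike in profile were found by the distance between log2(FPKM + 1) values centred on each gene's own mean over the 4 libraries, a measure that the iPSC library dominates. For Uhrf1 the closest was Top2a (distance 0.0358), at 60.8 FPKM in MEFs, 64.7 on day 3, 82.9 on day 6 and 460.2 in iPSCs, followed by Ddit4 and Sgol2. Dnmt1 was closest to Hist1h2bh (0.0499), Smc4 (0.0517) and Tet2 (0.0522). For Tet2 the closest were Trim25 (0.0207), Brca2 (0.0242) and Slc27a3 (0.0301), and for Dnmt3a Zfand1 (0.0535), Pim2 and Depdc7. Tet1 was closest to Ifitm1 (0.0993), Tfrc and Amt, and Tdg to Pcid2 (0.0374), Cmklr1 and Agrn. For the 2 genes with the widest range the smallest distances were larger. The closest to Dnmt3b was 2210011C24Rik (0.262), with Mael next (0.273), and the closest to Dnmt3l was Epcam (0.391). The measure is not scaled to a gene's range, so these larger distances need not be a trait of the 2 genes.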

How the data were processed

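Long RNA was measured in 4 libraries, 1 each of MEFs, day 3, day 6 and iPSCs. The 4 small RNA samples of the series are not used here. Libraries were depleted of ribosomal RNA, per the labels' protocols. The deposited table holds FPKM per gene, per the file headers, made by the authors. The submitters' processing notes name HISAT2, Cufflinks and build mm9, without role or version. Gene models, filters, strand setting, pooling and depth were not stated.

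From these values, log2(FPKM + 1) was computed with Python 3.11.15 and pandas 2.3.3. With 1 library per group there was no test. The rule was a difference of at least 1 with at least 1 FPKM in the higher library, applied to every row. A check on simulated data held only changes larger than the rule in well-expressed rows. It therefore says nothing of low values or of differences near the rule. A symbol on several rows was represented by its highest row in the lists. Named genes are the 10 enzymes, the list genes past the rule (all where at most 5, otherwise the 3 highest and 3 lowest) and direct partners of the enzymes. For likeness, the 3 closest rows per gene were taken. The genes and all 13 lists were chosen with earlier results of these data known. The 10 Ensembl identifiers carried the same symbols in a current name table. Promoters of all 10 genes came from RefSeq (GRCm38.p6), which also gave gene overlaps. Pseudocounts, rescalings, minimums and thresholds were varied. For 1 gene that this rule names, the values are not reported here.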

Additional observations from a re-analysis of the deposited data

How the results depend on the processing

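No paired analysis was possible because no group had more than 1 library, so no replicate could be left out either. Settings that could move no count were left out, and 89 of 96 counts over the 10 genes stayed within 1.5 times the value reported. Some of the 96 still could not move by construction. The order of the libraries does not depend on pseudocount, minimum or threshold, and a count of 0 cannot rise under a stricter minimum or threshold. At a log2 difference of 2, 4 genes were higher in iPSCs against day 6 and 4 against MEFs (Dnmt3l, Dnmt3b, Tet1 and Uhrf1). At a difference of 1.5-fold, 1 gene was lower in iPSCs against day 6 and 1 against MEFs, and with a pseudocount of 0.1 FPKM 1 was lower against day 6, in each case Tet3. After upper-quartile rescaling and in TPM, 1 gene was lowest in iPSCs in place of 2, since Uhrf2 was then not. With a pseudocount of 5 FPKM 7 genes were higher in iPSCs against either stage, without Tdg. Of 250 log2 differences under the 2 other pseudocounts and 3 rescalings, 230 moved by under 1.5-fold and 0 called ones changed sign. For iPSCs against MEFs, Dnmt3l was at 9.56 with a pseudocount of 0.1 and 5.09 with 5, Dnmt3b at 6.12 and 2.95, and Tet1 at 5.34 and 2.93. On day 6 Dnmt3l was 1.66 above MEFs and 1.89 above day 3 with a pseudocount of 0.1.

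Of 234 list counts for iPSCs against MEFs, 198 stayed within 1.5 times, and here too counts of 0 could not rise under stricter settings. At a log2 difference of 2 the higher genes were 6 partners (10 as reported), 5 repair genes (10), 2 TET cofactor genes (4), 2 of the methyl donor cycle (4) and 10 proliferation genes (16), and the lower ones 2 readers (4) and 0 of the methyl donor cycle (3). At 1.5-fold, 7 readers were lower, and 7 TET cofactor and 7 methyl donor genes higher. Readers higher were 2 after upper-quartile rescaling, in TPM and at 1.5-fold, and 0 at a log2 difference of 2. The cause of these shifts was not tested beyond the settings' own construction. A difference of 1 on this scale needs 1 FPKM in the higher library, so dropping that minimum adds no information. Dnmt3l, Dnmt3b and Tet1 before iPSCs rest on few fragments, which limits their early differences.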

Other observations

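Germline genes whose promoters are known to be methylated in somatic cells were near 0 in fibroblasts and higher in iPSCs, beside the higher methyltransferase levels there. Of 17 listed, 15 had a row. Before iPSCs, all 15 were under 1 FPKM. Their summed level was 1.56 FPKM in MEFs, 1.67 on day 3, 1.53 on day 6 and 259 in iPSCs. Of 14 compared, 13 were higher in iPSCs than in MEFs (median 3.61), beside 21.1% of all rows higher. As all were under 1 FPKM in MEFs, a gene entered this comparison only through its iPSC level. None could be called lower, and the count of 13 adds nothing to the levels themselves. The other of the 14, Tdrkh, passed the rule in TPM and was named after its value was seen. With a pseudocount of 5 FPKM, or with a minimum of 5 FPKM, 8 were higher. Tex19.1 was at 34.1 FPKM in iPSCs and 0.0601 in MEFs, Mael, of the piRNA pathway, at 27.7 FPKM in iPSCs and 0.10 in MEFs, and Dazl, an RNA-binding protein of germ cells, at 26.3 FPKM in iPSCs and 0.0621 in MEFs. Slc25a31, a testis form of the ADP/ATP carrier, was at 4.54 FPKM in iPSCs and 0.0740 in MEFs, and Tex101 at 3.52 FPKM in iPSCs and 0.0621 in MEFs. Dpep3 was at 3.62 FPKM in iPSCs and listed at 0 in MEFs. The list also holds Zfp42, a pluripotency gene, at 87.8 FPKM in iPSCs and 0.0102 in MEFs. No DNA methylation was measured in the data used here, so these levels say nothing of the marks at the promoters.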
